A study of Homo sapiens with 6 samples.

Results

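A-kinase anchoring proteins are scaffolds that tie the cAMP-dependent protein kinase (PKA) to particular places in a cell. The 10 genes described here (AKAP1, AKAP5, AKAP6, AKAP7, AKAP8, AKAP9, AKAP10, AKAP11, AKAP12 and AKAP13) were picked by symbol from a table of 37923 genes, and each symbol matched 1 row. They were chosen with the difference of AKAP12 between the groups already known, so their values in that comparison are a description and support nothing. RNA was sequenced from 6 samples of cells labelled RKO, a human colorectal carcinoma line, as 3 libraries labelled Control and 3 labelled ENZ. The series design states that the ENZ cells received A3, a compound that degrades the histone demethylase LSD1, and that RNA was taken at 48 h. The replicates are described as biological, and neither the vehicle of the Control cells nor the meaning of ENZ is given in the sources used here. What separated the replicates is not given either, so a p-value here measures library to library spread, which may be technical.

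PKA is a tetramer of regulatory and catalytic subunits that is set free by cAMP. An anchoring protein holds the regulatory subunits through a short amphipathic helix and gathers phosphatases, phosphodiesterases and other kinases beside the enzyme, so that cAMP acts locally. Members of the family differ in where they sit, at the plasma membrane, the outer mitochondrial membrane, the centrosome and Golgi, the nuclear envelope or the nucleus. AKAP12, also called gravin or SSeCKS, binds PKA and protein kinase C at the cell cortex and is known as a brake on migration that is often silenced in tumours.

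Libraries held 26691289 to 30025543 counts, and a gene with 0 counts could have had up to 3 counts, or 0.0999 to 0.112 CPM (counts scaled to a library total of 1000000). Log2 CPM values correlated at 0.994 to 0.995 within groups and at 0.985 to 0.989 between them. Of 9 colorectal marker genes measured, 6 were under 1 CPM, and CDX1, KRT20 and GPA33 did not exceed 0.0747 CPM in any library. Of 10 markers of prostate luminal cells, 8 were over 10 CPM and 0 under 1 CPM. They differed in both directions: the mean CPM in Control and ENZ was 626 and 857 for FOLH1 and 157 and 193 for HOXB13, but 274 and 131 for STEAP2, 153 and 113 for KLK4, 74.4 and 22.6 for SLC45A3 and 17.6 and 11.5 for KLK2. Of 6 markers of lines such as RKO with mesenchymal traits, 4 were over 10 CPM and 2 under 1 CPM, so that list does not decide. The prostate luminal markers go against the label RKO, which is used below only as a label. The treatment of the ENZ libraries is likewise known only from the series design: a degrader acts on the protein, so no transcript level here checks it, and which agent these libraries received is in doubt. Markers of leukocytes and endothelium summed to at most 1.96 and 0.248 CPM in any library. The 7 fibroblast markers summed to 77.6 to 86.7 CPM in Control and 40.2 to 43.1 CPM in ENZ. Most of this was LUM, with a mean of 67.4 CPM in Control and 29.2 in ENZ. COL1A1 was at 10.3 to 13.2 CPM over all libraries, and DCN had a mean of 2.21 CPM in Control and 0.335 in ENZ. The other 4 were under 1 CPM, with COL1A2 at no more than 0.034 CPM. The part of these marker differences in the results below was not tested. In bulk RNA, fewer cells of a kind and less RNA per cell cannot be told apart.

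AKAP12 (ENSG00000131016) lies on chromosome 6 from 151239967 to 151358559 on the plus strand (GRCh38). RefSeq places transcript starts at 3 separate points of this gene, and the deposited counts are per gene, so they do not show which start lost transcripts. The 250 bases before each start are shown because they are the 3 candidate promoters of the gene that differed most, followed by the single promoter of AKAP5, the member that differed most after it (RefSeq, GRCh38.p14, plus strand, 5′ to 3′). Capitals mark a GC box (GGGCGG) or a CCAAT box (CCAAT) on either strand; none of the windows overlaps another, and no 2 marked motifs overlap. The windows are chr6:151239717-151239966, chr6:151325281-151325530, chr6:151341456-151341705 and chr14:64465249-64465498.
AKAP12 start 1: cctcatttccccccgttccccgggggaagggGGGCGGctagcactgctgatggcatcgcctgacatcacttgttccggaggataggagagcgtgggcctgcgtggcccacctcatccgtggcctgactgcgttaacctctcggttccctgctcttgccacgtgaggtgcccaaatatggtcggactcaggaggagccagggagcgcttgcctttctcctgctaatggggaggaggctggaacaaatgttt
AKAP12 start 2: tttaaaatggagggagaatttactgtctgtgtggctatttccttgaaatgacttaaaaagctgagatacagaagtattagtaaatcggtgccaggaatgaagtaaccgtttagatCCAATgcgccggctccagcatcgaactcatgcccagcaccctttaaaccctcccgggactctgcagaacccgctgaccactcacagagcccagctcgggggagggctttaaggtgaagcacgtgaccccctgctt
AKAP12 start 3: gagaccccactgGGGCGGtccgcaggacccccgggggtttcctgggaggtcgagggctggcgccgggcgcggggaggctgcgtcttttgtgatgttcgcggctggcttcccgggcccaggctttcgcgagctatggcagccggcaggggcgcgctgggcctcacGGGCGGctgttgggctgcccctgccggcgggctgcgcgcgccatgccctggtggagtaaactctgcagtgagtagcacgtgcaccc
AKAP5: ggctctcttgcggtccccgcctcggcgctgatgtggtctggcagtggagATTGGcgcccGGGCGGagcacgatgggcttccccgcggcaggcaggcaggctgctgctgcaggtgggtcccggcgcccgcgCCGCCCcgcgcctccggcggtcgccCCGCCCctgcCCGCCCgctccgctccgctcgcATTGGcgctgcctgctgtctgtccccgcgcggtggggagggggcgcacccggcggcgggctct

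The AKAP12 windows differed in composition, with 61.2%, 50% and 72.8% GC and with 13, 9 and 25 CpG dinucleotides from the first start to the third. The median over all 35114 promoters of the same length was 58.0% GC and 11 CpG. A GC box was present at the first and the third AKAP12 start and a CCAAT box at the second. All 10 members matched the RefSeq table, with 17 windows in all. GC boxes were found in 12 of the 17 windows and in 42.6% of all promoters, and CCAAT boxes in 7 of the 17 and in 32.0%. A complete cAMP response element (TGACGTCA) was in 0 of the 17 windows and in 1.65% of all promoters. Its core (TGACG) was in 6 windows, of AKAP1, AKAP7, AKAP8 and AKAP9, and in 21.2% of all promoters. The half-site of steroid receptors (AGAACA) was in 2 windows, 1 of AKAP7 and 1 of AKAP9, and in 12.4% of all promoters, and the TATA box (TATAAA) was in 2, of AKAP9 and AKAP13, and in 10.7%. All motifs were searched on both strands. Windows of 1 gene can overlap, as those of AKAP1 do, so they are not independent.

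Levels between genes were compared as FPKM, which divides a count by the gene's length and the library total. The length used by the authors counts every annotated exon base (26515 for AKAP9, whose longest transcript has 13915), so genes with many exon variants read low on this scale. In Control, AKAP1, the anchor of the outer mitochondrial membrane, was the highest at 18.6 ± 0.809 FPKM (SD, n = 3), followed by AKAP12 at 13.5 ± 0.158 and AKAP11, an anchor that also binds the kinase GSK3, at 10.6 ± 0.260. AKAP8, a nuclear matrix protein, was at 8.75 ± 0.196 FPKM, AKAP10, which binds both types of regulatory subunit, at 6.82 ± 0.346, and AKAP9, the large scaffold of centrosome and Golgi, at 5.67 ± 0.381. AKAP13, also called AKAP-Lbc, was at 2.27 ± 0.0514 FPKM. The other 3 were under 1 FPKM: AKAP5, the plasma membrane and synaptic anchor, at 0.853 ± 0.0586, AKAP6, the anchor of the nuclear envelope in muscle, at 0.562 ± 0.0148, and AKAP7, also called AKAP18, at 0.459 ± 0.0438. In this order no 2 neighbours overlapped in their Control libraries.

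**Figure D1:**
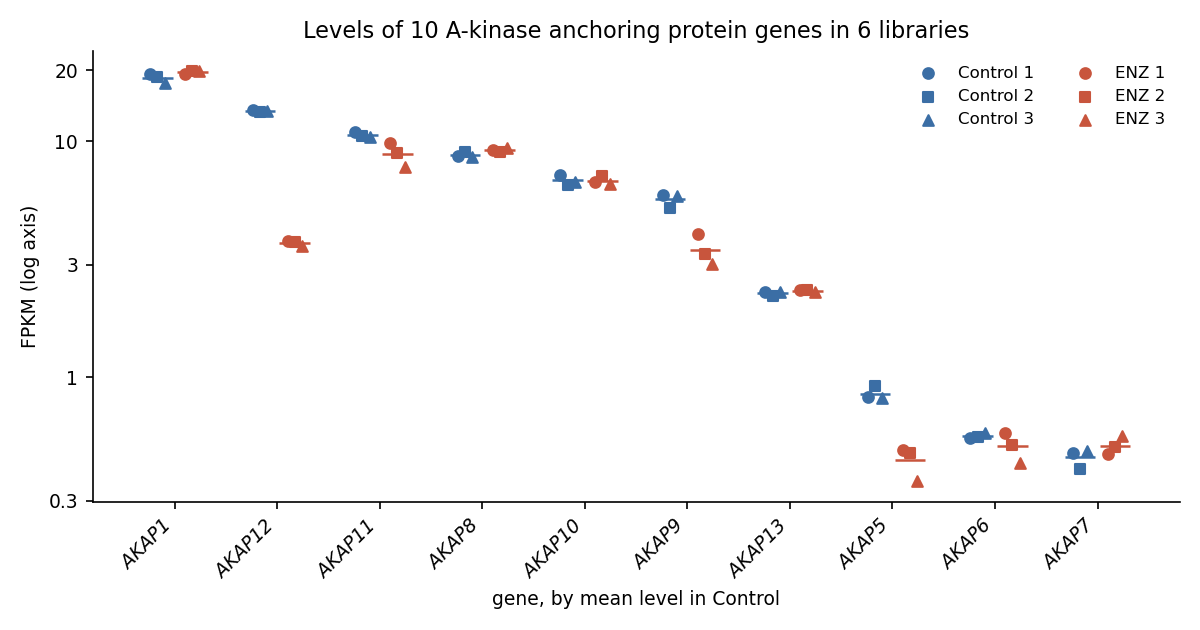
FPKM (log axis) of the 10 anchoring protein genes in each of the 6 libraries, ordered by the Control mean; marker shapes give the replicate number, colours the group and short lines the group means. AKAP12 went from 13.5 FPKM in Control to 3.71 in ENZ, and AKAP5, AKAP9 and AKAP11 also had all ENZ libraries below all Control libraries.

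The order was different in ENZ. AKAP1 stayed first at 19.6 ± 0.344 FPKM, and AKAP12 went from the second place to the fifth at 3.71 ± 0.0849, overlapping the sixth, AKAP9, at 3.46 ± 0.525. AKAP8 at 9.17 ± 0.191 and AKAP11 at 8.83 ± 1.03 FPKM overlapped as well. AKAP7 at 0.513 ± 0.0464, AKAP6 at 0.510 ± 0.0758 and AKAP5 at 0.444 ± 0.0711 FPKM were the lowest, and each overlapped its neighbour. Without ENZ replicate 3, the library with the lowest AKAP11, AKAP6 and AKAP5 levels, 4 of the 10 genes changed places in the ENZ order.

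The 10 genes summed to 68.0 ± 1.46 FPKM in Control and 55.4 ± 1.42 FPKM in ENZ, a difference of 12.6 FPKM. AKAP12 made up 9.76 of it. Its share of the sum was 19.6%, 19.7% and 20.2% in the Control libraries and 6.67%, 6.71% and 6.71% in the ENZ libraries. The other 9 genes summed to 54.5 ± 1.35 FPKM in Control and 51.7 ± 1.33 in ENZ. AKAP1 held 26.4% to 27.9% of the sum in Control and 33.9% to 36.9% in ENZ, at nearly the same level of its own transcript.

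**Figure D2:**
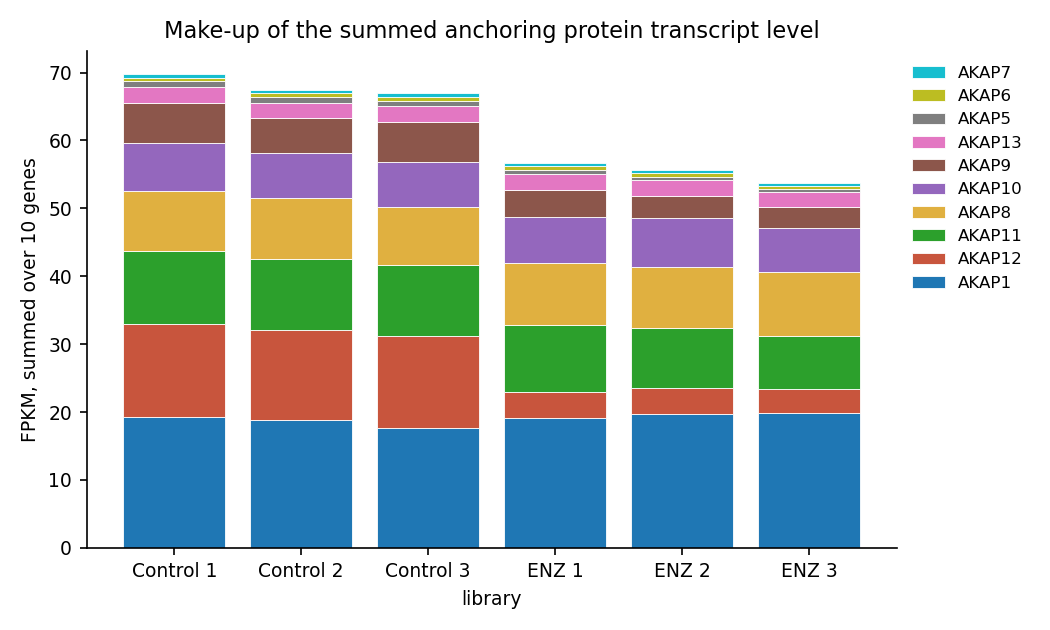
FPKM summed over the 10 genes (vertical axis) in each library (horizontal axis), split by gene. The AKAP12 segment covers 19.6% to 20.2% of the bar in Control and 6.67% to 6.71% in ENZ.

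Counts were compared between groups with edgeR's quasi-likelihood test over 18581 genes, and genes with a Benjamini-Hochberg adjusted p below 0.05 over all of them are referred to as called. All 10 members passed the filter on low counts. Of the 10, 4 were called lower in ENZ (AKAP12, AKAP5, AKAP9 and AKAP11), 1 was called higher (AKAP1) and 5 were not called. The same test called 39.8% of all tested genes, 20.5% higher (3814) and 19.3% lower (3579). The balance turned with library totals alone (3097 higher and 4104 lower) and with GC and length offsets (3554 and 4075). It also turned in every fit to FPKM values (2528 and 2869, 2508 and 2840, and 1904 and 2206). Nothing is read from the members' count because the contrast was known when they were chosen. The median log2 fold change (ENZ over Control) was −0.04 over the members and −0.01 over all tested genes. A called log2 fold change under −1 was found for 1 member, AKAP12, and for 2.24% of all tested genes. For 5 members, 4 of them lower in ENZ, the CPM of the 2 groups did not overlap, as was so for 49.2% of all tested genes (27.6% with ENZ lower).

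AKAP12 had 3372, 3173 and 3159 counts in the Control libraries and 995, 877 and 932 in the ENZ libraries. That is 120, 117 and 118 CPM against 33.1, 32.8 and 31.7 CPM, with little spread inside either group and a wide gap between them. The level was 3.55-fold lower in ENZ (log2 fold change −1.83 ± 0.05 SE). Among 15343 tested genes with a mean of at least 1 CPM, 29 had a lower fold change. Of the 2037 of these that were at least as abundant as AKAP12 in Control, 1 did. Over the 17 alternative settings its log2 fold change ran from −1.86 to −1.62, the latter on the log2(FPKM + 1) scale, which shrinks changes.

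AKAP5 (ENSG00000179841; chromosome 14, 64465499 to 64474503), which brings PKA, protein kinase C and the phosphatase calcineurin to receptors and channels at the membrane, was scarce. It had 174, 188 and 164 counts in Control and 111, 96 and 80 in ENZ, or 6.17, 6.92 and 6.14 CPM against 3.70, 3.59 and 2.72 CPM. No ENZ library reached the lowest Control library, and the level was 1.88-fold lower (log2 fold change −0.91 ± 0.13 SE). AKAP5 overlaps ZBTB25 on the opposite strand, and the library kit does not mark strand, so reads in the shared part cannot be assigned. ZBTB25 itself had a mean of 22.4 CPM and a log2 fold change of −0.48.

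AKAP9 (ENSG00000127914; chromosome 7, 91940840 to 92110673), which anchors PKA and nucleates microtubules at centrosome and Golgi, had the highest CPM of the family in Control and the longest model, which CPM does not correct for. Its libraries were at 157, 139 and 156 CPM in Control and at 107, 88.1 and 79.9 CPM in ENZ. The groups did not overlap, and ENZ replicate 1 lay nearest to Control. The level was 1.60-fold lower in ENZ (log2 fold change −0.68 ± 0.11 SE), and the log2 fold change was −0.80 without ENZ replicate 1. CYP51A1 overlaps AKAP9 on the opposite strand, with 36.3 CPM and a log2 fold change of 0.03.

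AKAP11 (ENSG00000023516; chromosome 13, 42272152 to 42323261) differed less. Its libraries were at 108, 104 and 103 CPM in Control and at 97.4, 88.3 and 77.0 CPM in ENZ, and all ENZ libraries were below all Control libraries. The log2 fold change was −0.23 ± 0.06 SE. It was −0.31 without ENZ replicate 1 and −0.15 without ENZ replicate 3, and the call was lost on unfiltered log2(FPKM + 1) values.

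AKAP1 (ENSG00000121057; chromosome 17, 57085092 to 57121346) had 103, 100 and 94.3 CPM in Control and 103, 105 and 106 CPM in ENZ. The groups overlapped, with Control replicate 3 the lowest of all libraries. Its log2 fold change of 0.11 ± 0.04 SE was just past the threshold, and the call was lost in 11 of the 17 alternative settings.

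The other 5 members were not called. On the log2 scale the difference was 0.10 for AKAP8 (95% interval 0.00 to 0.20), 0.03 for AKAP10 (−0.09 to 0.16) and 0.07 for AKAP13 (−0.03 to 0.18). AKAP8 was at 54.7, 56.5 and 54.1 CPM in Control and at 57.8, 56.6 and 59.0 CPM in ENZ, without overlap, while the libraries of AKAP10 and AKAP13 overlapped. AKAP6 was at 10.9, 11.0 and 11.4 CPM in Control and at 11.5, 10.2 and 8.5 CPM in ENZ, a log2 fold change of −0.11 (−0.31 to 0.10). AKAP7, with 51 to 76 counts per library, was the scarcest by FPKM in Control and had the widest interval of the 10 (0.19, from −0.16 to 0.55).

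**Figure D3:**
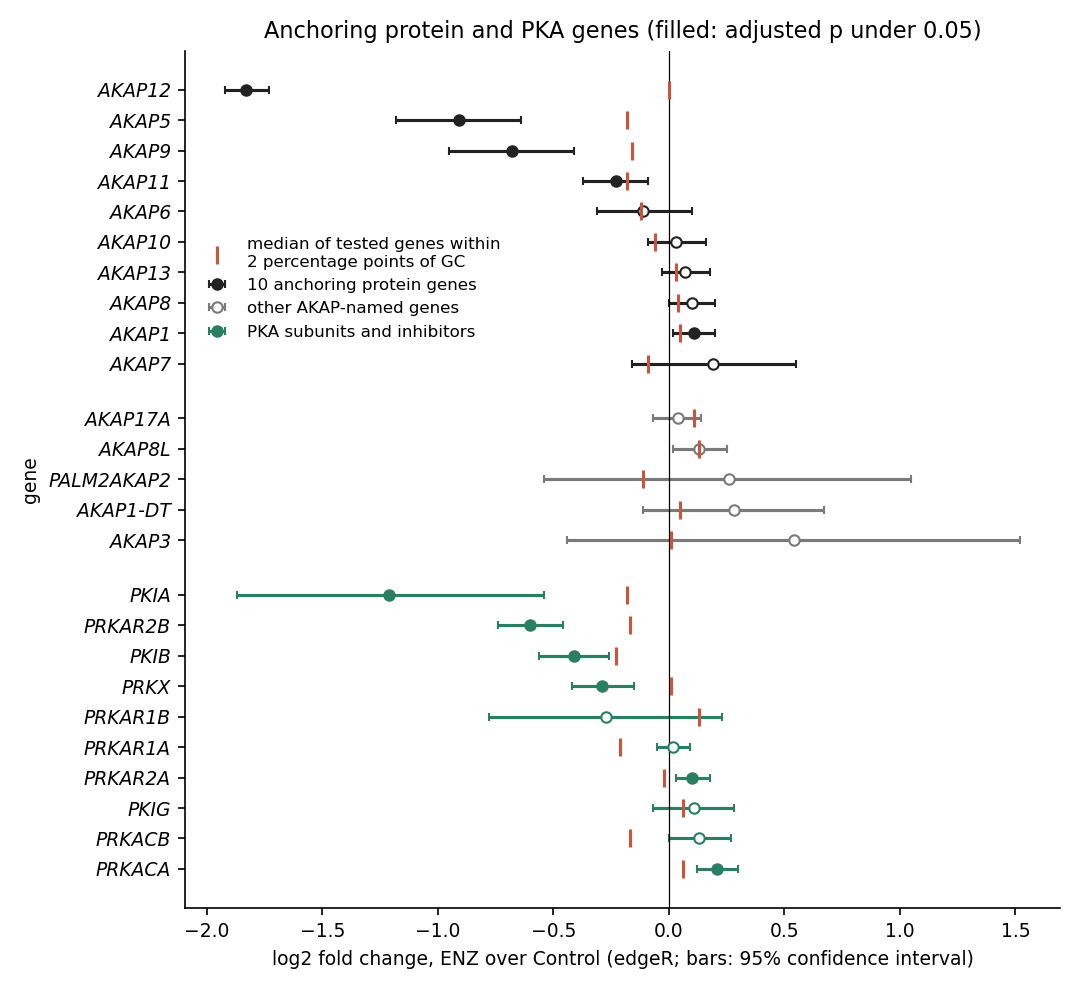
Log2 fold change (ENZ over Control, horizontal axis) with its 95% confidence interval for the 10 anchoring protein genes, 5 other AKAP-named genes and the PKA subunit and inhibitor genes; filled points were called, and red ticks give the median of tested genes of like GC content. AKAP12, AKAP5 and AKAP9 lie left of their ticks, while AKAP11 (−0.23) lies near its tick at −0.18.

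Fold changes went with GC content over all genes, and so did the difference between ENZ replicate 1 and the other ENZ libraries. The median log2 fold change was −0.18 over 3126 tested genes whose longest transcript had under 40% GC and 0.14 over 2524 genes at 60% or more. Of the members, AKAP5 (36.9% GC), AKAP11 (37.3%), AKAP9 (38.5%) and AKAP6 (39.9%) were under 40%. In log2 CPM, ENZ replicate 1 was above the mean of ENZ replicates 2 and 3 by 0.24, 0.24, 0.35 and 0.31 for these 4 genes, and by 0.14 in the median of all tested genes under 40% GC. For the 6 members of higher GC content the same difference ran from −0.18 to 0.04.

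With offsets per library for GC content and length, the log2 fold change was −1.85 for AKAP12, −0.78 for AKAP5 and −0.55 for AKAP9. It was −0.10 for AKAP11, which was still called, and 0.02 for AKAP1, which was not. Tested genes within 2 percentage points of the GC content of AKAP12 (46.3%) had a median log2 fold change of 0.00, those near AKAP5 of −0.18 and those near AKAP9 of −0.16.

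Of the 8 other genes with AKAP in their symbol, 5 were tested and 0 were called by edgeR; 1, AKAP8L, had an unadjusted p under 0.05. AKAP8L, the neighbour and homologue of AKAP8, had 43.6 ± 2.18 CPM in Control against 46.8 ± 2.39 for ENZ (a difference of 0.13 in log2 units, 95% interval 0.02 to 0.25), and it was called without Control replicate 2 or without ENZ replicate 1 (0.18 in each) and with the replicate number as a block (0.14). With GC and length offsets it was at −0.02 and not called. DESeq2 called 0 of AKAP8L, AKAP17A, PALM2AKAP2 and AKAP3. AKAP17A, a splicing-associated anchor, was at 48.8 CPM in both groups (0.04, interval −0.07 to 0.14). PALM2AKAP2 and AKAP3, a sperm sheath protein, stayed under 0.6 CPM in every library. AKAP1-DT, the divergent non-coding gene beside AKAP1, was at 2.36 ± 0.338 and 2.81 ± 0.708 CPM (0.28, interval −0.11 to 0.67). The germline gene AKAP4 and AKAP14 had at most 1 count in any library, and AKAP17BP at most 4.

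The genes around AKAP12 were measured in the same fit. ZBTB2, which begins 5.56 kb beyond the end of AKAP12, had a log2 fold change of −0.10 ± 0.07 SE, RMND1 of −0.13 ± 0.07 and ARMT1 of −0.15 ± 0.06 (adjusted p = 0.276, 0.158 and 0.0634 in edgeR's quasi-likelihood test). On the other side MTHFD1L, an enzyme of mitochondrial folate metabolism that ends 138 kb before AKAP12, rose by 0.20 ± 0.05 (adjusted p = 0.00188, edgeR). ULBP1, a ligand of the immune receptor NKG2D more than 1 Mb away, rose by 0.72 ± 0.15 (adjusted p = 5.85e-04, edgeR), and ULBP2 had a value of 0.35 ± 0.19 (adjusted p = 0.15, edgeR). None of these 6 neighbours was called lower.

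The genes whose profile over the 6 libraries was most like that of AKAP12 were found by the root mean square difference of log2 CPM, each gene centred on its mean, among 14279 genes. HPGD, which inactivates prostaglandins, was nearest (difference 0.085), followed by SLC45A3 (0.089), the transcription factor gene CUX2 (0.0994), the fibrillin gene FBN2 (0.105) and the potassium channel gene KCNMA1 (0.117). HPGD was at 146 ± 3.62 CPM in Control and 37.4 ± 3.79 in ENZ, and SLC45A3 at 74.4 ± 1.07 and 22.6 ± 1.2. Since the libraries form 2 groups, likeness here is mostly that of the size of the fall, from −1.93 (HPGD) to −1.69 (SLC45A3) on the log2 scale.

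**Figure D4:**
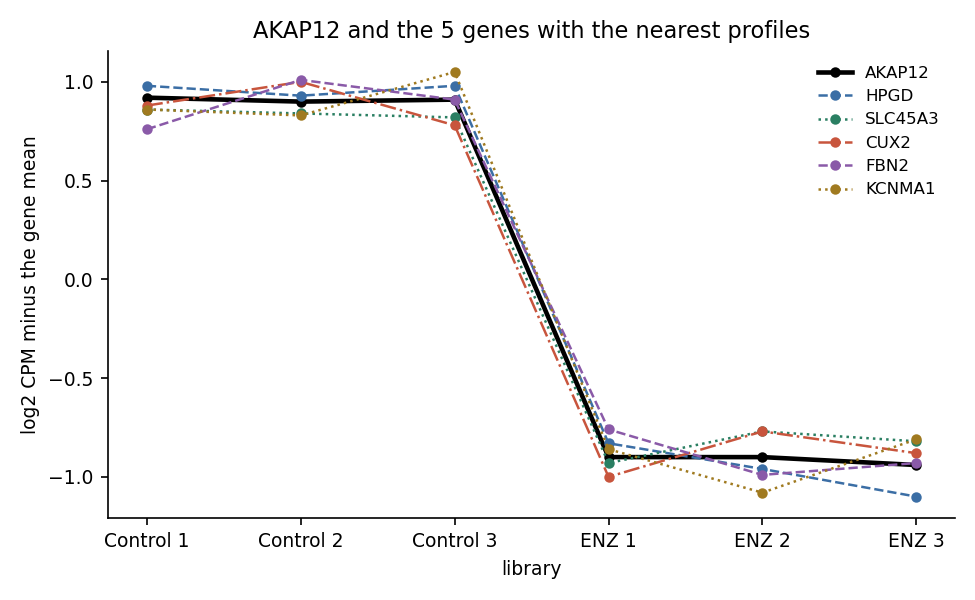
Log2 CPM minus each gene's mean (vertical axis) in the 6 libraries (horizontal axis) for AKAP12 and the 5 genes nearest to it. AKAP12 lies at 0.90 to 0.92 in Control and at −0.94 to −0.90 in ENZ, with less spread inside the groups than HPGD, which runs from −1.10 to −0.83 in ENZ.

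The kinase that these proteins anchor was then described. Of 10 tested genes for PKA subunits and inhibitors 2 rose and 4 fell, a called share of 60% against 39.8% of all tested genes, with a median log2 fold change of −0.13. Among the regulatory subunits, PRKAR2B, the type II beta form, was at 35.8, 39.1 and 39.6 CPM in Control and at 27.5, 23.6 and 22.6 CPM in ENZ. It fell by 0.60 ± 0.07 SE (adjusted p = 5.47e-07, edgeR), the groups did not overlap, and with GC and length offsets it fell by 0.49. PRKAR2A, the type II alpha form, rose from 223 ± 1.66 to 233 ± 3.97 CPM (0.10 ± 0.04; adjusted p = 0.0262, edgeR), a call that was lost in 9 of 17 settings. PRKAR1A, the main type I form, was at 331 ± 2.53 and 328 ± 11.9 CPM (0.02, interval −0.05 to 0.09).

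Per length, PRKAR2B made up 21.1% ± 0.844 of the summed FPKM of both type II genes in Control and 14.1% ± 1.41 in ENZ. The 4 regulatory subunit genes together were at 68.9 ± 0.496 FPKM in Control and 67.0 ± 1.29 in ENZ. Their summed level differed by 1.90 FPKM, beside 2.87 FPKM for the 9 anchoring protein genes without AKAP12 and 12.6 FPKM with it. Because AKAP12 was known to differ when the members were chosen, nothing is read from the larger value.

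Among the catalytic subunits, PRKACA rose by 0.21 ± 0.04, from 141 ± 4.95 to 159 ± 5.46 CPM (adjusted p = 3.59e-04, edgeR), and by 0.11 with GC and length offsets. PRKACB had a value of 0.13 ± 0.07 (30.0 ± 0.968 and 32.2 ± 3.11 CPM; adjusted p = 0.109, edgeR). The remaining falls in this list, named here after their values were seen, were in PRKX, a related kinase (−0.29 ± 0.06), and in 2 genes for inhibitor peptides that block the catalytic subunit, PKIB (−0.41 ± 0.07, or −0.23 with GC and length offsets) and PKIA (−1.21 ± 0.32). PKIA was under 1.5 CPM in every library.

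Adenylyl cyclases make cAMP and phosphodiesterases break it down. Of 6 tested adenylyl cyclase genes 1 rose and 0 fell (16.7% called). ADCY6 and ADCY3, the most abundant, had log2 fold changes of 0.08 ± 0.04 and 0.01 ± 0.05 (adjusted p = 0.151 and 0.947, edgeR); with GC and length offsets ADCY3 turned to a called fall of −0.11. The 1 rise, named after its value was seen, was in ADCY9 (0.37 ± 0.05; adjusted p = 1.38e-05, edgeR). Of 12 tested cAMP phosphodiesterase genes 1 rose and 4 fell, a called share of 41.7%, close to the 39.8% of all tested genes. PDE3A fell by 2.87 ± 0.19, from 5.07 ± 0.404 to 0.679 ± 0.158 CPM (adjusted p = 5.13e-11, edgeR), and PDE7B rose by 1.82 ± 0.24, from 0.736 ± 0.304 to 2.53 ± 0.0749 CPM (adjusted p = 3.17e-06, edgeR).

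Among 9 tested genes of G proteins and other cAMP effectors 2 rose and 3 fell (55.6% called, beside 39.8% of all tested genes). GNAI1, an inhibitory G protein subunit, fell by 0.74 ± 0.07, from 22.6 ± 0.767 to 13.3 ± 0.809 CPM (adjusted p = 5.27e-08, edgeR). POPDC3, a cAMP-binding membrane protein, fell by 0.92 ± 0.22 and GNAL, a stimulatory subunit, by 0.82 ± 0.23, both at under 4 CPM. The GNAL call was lost in DESeq2. The 2 rises, named after their values were seen, were in more abundant genes. GNAS, a stimulatory subunit, rose by 0.37 ± 0.03, from 722 ± 12.6 to 913 ± 2.1 CPM (adjusted p = 5.13e-09, edgeR). GNAI2, an inhibitory subunit, rose by 0.26 ± 0.04, from 287 ± 8.26 to 334 ± 7.1 CPM (adjusted p = 7.95e-06, edgeR). Of 9 CREB factors and coactivators 3 rose and 0 fell (33.3% called), with EP300 at 0.12 ± 0.04 and CREBBP at 0.20 ± 0.04; the EP300 call was lost in 7 of 17 settings, and with GC and length offsets CREBBP rose by 0.11.

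Genes known as targets of CREB, the transcription factor that PKA activates, went both ways. Of 16 tested 4 rose and 4 fell (50% called, beside 39.8% of all tested genes), with a median of 0.00. PER1, a clock gene, fell by 0.88 ± 0.05, from 99.9 ± 4.24 to 53.0 ± 0.975 CPM (adjusted p = 2.10e-12, edgeR), and JUNB, a subunit of AP-1, rose by 0.71 ± 0.05, from 58.5 ± 2.29 to 93.6 ± 3.89 CPM (adjusted p = 1.54e-10, edgeR).

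Of 19 tested genes for PKA anchors with other names 8 rose and 5 fell, with a median log2 fold change of 0.05. The called share was 68.4%, beside 39.8% of all tested genes, and whether the list differs from other genes was not tested. MYRIP, a linker of secretory granules to myosin, rose by 0.65 ± 0.07 (19.4 ± 1.03 to 29.7 ± 2.35 CPM; adjusted p = 2.22e-07, edgeR). MAP2, a microtubule protein that binds type II PKA, fell by 0.56 ± 0.05 (77.0 ± 0.888 to 51.0 ± 3.27 CPM; adjusted p = 1.03e-08, edgeR). MSN, the membrane to actin linker moesin, fell by 0.75 ± 0.11 (8.68 ± 0.949 to 5.03 ± 0.379 CPM; adjusted p = 1.44e-05, edgeR).

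Among genes for proteins that AKAP12 or AKAP5 are known to hold, 8 of 18 tested rose and 2 fell, or 55.6% called against 39.8% of all tested genes, with a median of 0.10; whether the list differs from other genes was not tested. PRKCD, the delta form of protein kinase C, rose by 1.13 ± 0.04, from 85.1 ± 4.72 to 181 ± 3.30 CPM (adjusted p = 8.50e-15, edgeR). Of 30 partners of AKAP1, AKAP6, AKAP9, AKAP11 or AKAP13, 13 rose and 6 fell (63.3% called), with a median of 0.07. The kinase gene PRKD1 (1.06 ± 0.08), whose product is held by AKAP13, rose, as did HDAC5 (0.80 ± 0.05). DNM1L, the mitochondrial fission enzyme that PKA on AKAP1 phosphorylates, fell by 0.55 ± 0.05 (180 ± 7.06 to 121 ± 11.3 CPM; adjusted p = 4.82e-07, edgeR). RYR2, the calcium channel that AKAP6 holds in heart muscle, fell by 0.70 ± 0.18 at under 5 CPM.

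**Figure D5:**
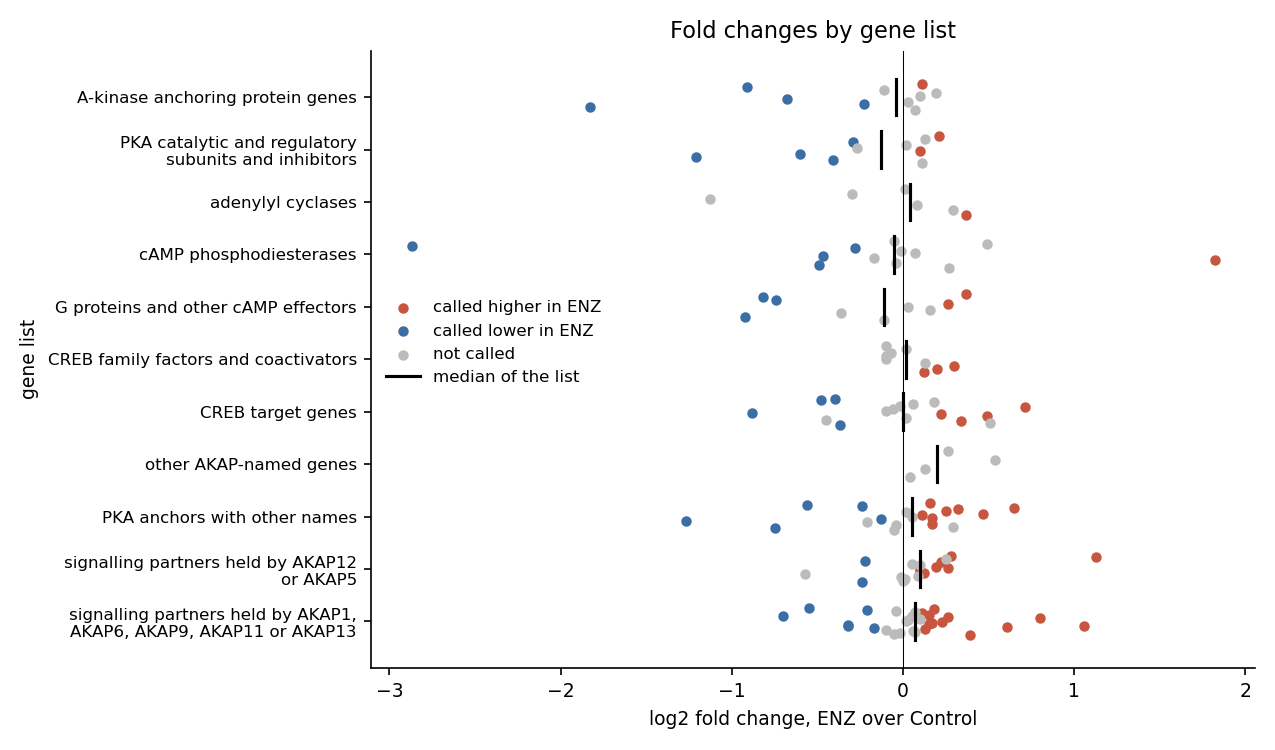
Log2 fold change (ENZ over Control, horizontal axis) of each tested gene in the 10 anchoring protein genes and in 10 lists of related genes, coloured by call, with the median of each list as a black line. List medians lie between −0.13 and 0.20, while AKAP12 (−1.83), PDE3A (−2.87) and PDE7B (1.82) lie far out.

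Over the 10 lists together, 42 of 131 tested genes rose and 28 fell, or 53.4% called against 39.8% of all tested genes. The numbers were 31 and 29 with library totals alone and 40 and 34 with GC and length offsets. In the edgeR comparison 3 rises and 3 falls exceeded an absolute log2 fold change of 1. The median was 0.05.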

How the data were processed

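Gene counts and FPKM values of 6 libraries were analysed. Per the submitters' processing notes, HISAT2 2.0.5, HTSeq 0.6.1 and DESeq2 1.20.0 were used with GRCh38 (hg38); the sources used here name no annotation release, strand setting or filter. Raw gene counts were deposited together with FPKM values computed by the authors. A gene length was worked out from each library's count, FPKM value and total. At 10 or more counts it stayed within 4.37e-06 percent of the gene's median over the libraries. Rows without a symbol (9849 genes) held 0.875% of counts and stayed in the fit. Positions, GC content and length came from GENCODE release 44, which held 37817 of 37923 gene identifiers.

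The comparison used edgeR 4.0.16 (R 4.3.3): TMM scaling, filterByExpr at its defaults, glmQLFit (robust) and glmQLFTest. P-values were adjusted by Benjamini-Hochberg across the genes that passed, and every adjusted p printed is from this fit. An SE was obtained from the log2 fold change and its F value. CPM is the count scaled to a total of 1000000, given as mean ± SD over 3 libraries. The procedure was tested on simulated data with few changed genes and no trend with GC content, unlike the data here. That test therefore does not cover such a trend or so many changed genes. Alternatives were DESeq2 1.42.0, limma-voom (limma 3.58.1), other scalings and filters, a replicate block, FPKM values tested by limma with pseudocounts of 1 and 0.1, GC and length offsets (natural splines, 4 degrees of freedom each) and each library left out. Same-numbered libraries did not deviate together (correlations of −0.0459 to 0.0181), so the comparison has no block.

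The members and the gene lists were chosen with earlier results of these data known. Genes named are all members and AKAP-named genes, 5 PKA subunits, in each other list up to 5 called genes with an absolute log2 fold change of at least 0.5 and a mean of at least 1 CPM (otherwise the 2 most abundant), the 5 profiles nearest to AKAP12, and 3 tested neighbours on each side of it. Intervals and floors cover counting error or the spread between libraries as stated, and protein sequences were not used here. Some genes that the rule would name are not reported here.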

Additional observations from a re-analysis of the deposited data

How the results depend on the processing

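The 4 members called lower kept that call in all settings but one where they were tested, the exception being AKAP11 on unfiltered log2(FPKM + 1) values; AKAP5 falls outside the filter of a mean of at least 1 FPKM, which leaves 3 lower calls on the filtered FPKM scales. The 1 higher call, AKAP1, became 0 with library totals alone, no filter, DESeq2, all 3 FPKM fits, GC and length offsets, and without Control replicate 2 or 3 or ENZ replicate 2 or 3 (0 to 1 over the libraries left out). Over those omissions, 3041 to 4264 genes were called higher and 2782 to 3994 lower, and 30 to 43 pathway genes were called higher and 24 to 32 lower. The balance of higher against lower calls turned with library totals alone (3097 and 4104) and with GC and length offsets (3554 and 4075). It also turned on log2(FPKM + 1), log2(FPKM + 0.1) and unfiltered log2(FPKM + 1) values, which test other gene sets. There 2528, 2508 and 1904 genes were called higher and 2869, 2840 and 2206 lower. Pathway genes called higher were 26, 26 and 21. Of the order by FPKM, 0 to 4 genes changed places in ENZ and 0 in Control when a library was left out. ADCY3 turned to −0.11 with GC and length offsets; the cause was not tested. Replicate numbers are shared by both groups without pairing the libraries; with the replicate block 3832 genes were called higher and 3634 lower, and 1 and 4 members. AKAP8L, called in no other full set of libraries, was called with the block (0.14).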
